A study of Mus musculus with 6 samples.

Results

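The 33 Hox genes analysed here are those of the 39 in the mouse genome that have an array probe set annotated to them and to no other gene, 48 probe sets in all, among 45101 probe sets and 18193 genes with a symbol. The remaining mouse Hox genes are not analysed here, and 3 further probe sets that list a Hox gene among several symbols named no gene. RNA came from whole embryonic mouse kidneys, dissected at day 12.5 (E12.5), and each of 6 samples was hybridized to its own Affymetrix array. Normal kidneys gave 3 arrays and kidneys deficient in beta-catenin gave the other 3, with replicates numbered 1 to 3 in each group. In the knockout, loxP sites flank exons 2 to 6 of the beta-catenin gene (Ctnnb1), and a Hoxb7-Cre:Gfp transgene supplies the recombinase. The Hoxb7 promoter of that transgene is active in the ureteric bud and its derivatives, so mesenchyme, stroma and blood vessels are not its target. The labels name no strain, no number of kidneys per vial and no allele or transgene of the normal mice. In whole kidneys, fewer cells of a type and less RNA per cell cannot be told apart.

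Hox genes encode homeodomain transcription factors and lie in 4 clusters, HoxA on chromosome 6, HoxB on 11, HoxC on 15 and HoxD on 2. Genes at the same place in different clusters form a paralog group, and low group numbers are expressed early and toward the head while high numbers are expressed late and toward the tail. In the kidney the group 11 genes Hoxa11, Hoxc11 and Hoxd11 act together in the metanephric mesenchyme, where with Eya1 and Pax2 they switch on Six2 and Gdnf, and the group 10 genes act in the mesenchyme and stroma. Hoxb7 is expressed along the Wolffian duct and ureteric bud.

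Values are MAS5 signals, on a linear scale. All 6 arrays had been scaled to a common trimmed mean of 150.0, and their medians ran from 24.9 to 32.1. Ctnnb1 itself read 5707, 6760 and 6549 in normal kidneys and 6777, 6779 and 6586 in knockout kidneys (each time in the order of replicates 1 to 3), a log2 difference of 0.09 (SE 0.08; limma adjusted p = 0.695). The place of its probes relative to the deleted exons is not analysed here, so this checks no label, and the description field of the knockout samples repeats the wording for normal kidneys. Groups follow the titles. The labels call the samples biological replicates without naming animals, so every p-value rests on the spread among these 6 samples, which may be technical in part.

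Promoter windows are shown for Hoxa11, Hoxd11, Hoxd12 and Hoxd13, which are only some of the posterior genes with a window. RefSeq (GRCm38.p6) windows of 250 bases before to 50 after a start were on hand for 19 of the 33 genes, 21 windows in all. Capitals mark matches, on either strand, to the Tcf/Lef words (CTTTG followed by AA, AT, TA or TT; Tcf/Lef proteins carry beta-catenin to DNA), the Hox-Pbx word TGATNNAT or the Cdx word TTTATG. No matches overlap in these windows.
Hoxa11, chr6:52245761-52246060, minus strand: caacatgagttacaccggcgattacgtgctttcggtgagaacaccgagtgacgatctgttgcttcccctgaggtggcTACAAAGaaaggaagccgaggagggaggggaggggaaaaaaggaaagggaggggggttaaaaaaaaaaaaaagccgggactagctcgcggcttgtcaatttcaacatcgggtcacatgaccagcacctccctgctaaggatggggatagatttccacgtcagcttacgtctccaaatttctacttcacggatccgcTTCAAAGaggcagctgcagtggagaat
Hoxd11, chr2:74682073-74682372, plus strand: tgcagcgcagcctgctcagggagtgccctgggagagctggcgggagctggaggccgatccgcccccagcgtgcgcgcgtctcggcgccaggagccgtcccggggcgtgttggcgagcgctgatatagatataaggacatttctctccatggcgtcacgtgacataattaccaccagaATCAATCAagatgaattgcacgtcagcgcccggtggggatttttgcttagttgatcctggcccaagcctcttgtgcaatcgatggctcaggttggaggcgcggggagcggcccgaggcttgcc
Hoxd12, chr2:74674763-74675062, plus strand: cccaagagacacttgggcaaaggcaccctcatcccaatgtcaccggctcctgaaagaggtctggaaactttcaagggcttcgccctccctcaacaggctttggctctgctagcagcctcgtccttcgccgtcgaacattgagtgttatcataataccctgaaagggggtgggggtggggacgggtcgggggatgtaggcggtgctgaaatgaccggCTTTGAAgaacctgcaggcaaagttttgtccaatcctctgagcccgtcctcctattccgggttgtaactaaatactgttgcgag
Hoxd13, chr2:74667975-74668274, plus strand: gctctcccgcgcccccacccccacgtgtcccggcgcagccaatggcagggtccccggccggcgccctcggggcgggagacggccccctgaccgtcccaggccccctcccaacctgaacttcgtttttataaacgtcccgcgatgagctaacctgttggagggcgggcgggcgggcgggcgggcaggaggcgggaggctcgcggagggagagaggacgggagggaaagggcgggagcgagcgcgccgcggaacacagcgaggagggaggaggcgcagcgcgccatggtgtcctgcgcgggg
The Hoxa11 window holds a Tcf/Lef word that begins at position -173 from the start and another at 24, and the Hoxd12 window holds one at -34. Hoxd8 is the remaining analysed gene with a Tcf/Lef word, so 3 of the 21 windows hold one, beside 16.9% of all 32851 promoter windows of the same length. The Hoxd11 window shown holds a Hox-Pbx word at -73, found in 3 of the 21 windows and in 8.85% of all windows. Hoxd11 has another window, further upstream, with a Cdx word, which 3 of the 21 windows and 11.9% of all windows contain. The Hoxd13 window holds none of the words searched, and neither do those of Hoxa9, Hoxa10, Hoxa13, Hoxd9 and Hoxd10, which are not shown. A match to so short a word is a description of the sequence and no evidence of binding.

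Most Hox genes with a probe set were read above the detection limit in both groups. The limit was the 40th percentile of all probe sets on each array, a signal of 14 to 17.9, and a gene was called detected in a group where one of its probe sets exceeded it on all 3 arrays. By this rule 25 of 33 genes were detected in both groups, 2 in normal kidneys alone (Hoxa4, Hoxa7), 2 in knockout kidneys alone (Hoxb1, Hoxd13) and 4 in neither (Hoxa13, Hoxb7, Hoxb13, Hoxc13). Most probe sets of any kind exceed such a limit by its definition, and the share of all genes detected by this rule was not computed. The counts can therefore not be read as a trait of Hox genes. Detection in both groups covered 6 of 9 HoxA, 6 of 9 HoxB, 6 of 7 HoxC and 7 of 8 HoxD genes. By place along the clusters, it covered 6 of 7 genes of groups 1 to 3, 9 of 12 of groups 4 to 8 and 10 of 14 of groups 9 to 13. Groups 9 to 12 were detected without exception among the 10 genes measured, whereas 3 of the 4 group 13 genes lay under the limit on every array. Group 13 genes mark the hindgut, the genital tubercle and the distal limb.

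**Figure D1:**
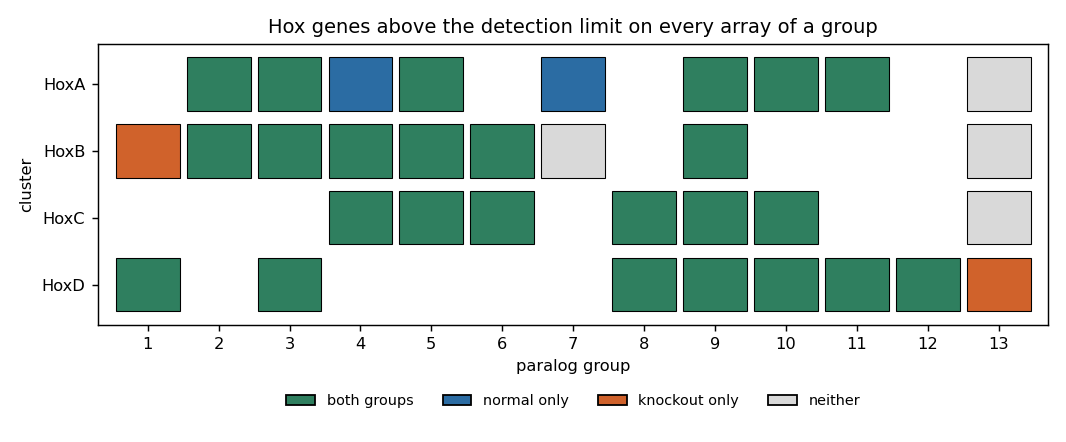
The map shows each of the 33 Hox genes analysed by cluster (rows) and paralog group (columns), coloured by whether it exceeded the detection limit on all 3 arrays of both groups, of normal kidneys alone, of knockout kidneys alone or of neither. Of the 33 boxes, 25 are coloured as detected in both groups, and 3 of the 4 boxes of group 13 as detected in neither.

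Of the 4 genes called in 1 group alone, 3 straddled the limit. Hoxa4 read 44.3, 27.3 and 24.9 in normal kidneys and 16.9, 28.5 and 33.3 in knockout kidneys, with the groups overlapping. Hoxa7 read 30.0, 31.0 and 21.0 against 15.7, 17.2 and 31.4, where knockout replicate 3 was above every normal array. Hoxb1, a hindbrain gene, read 19.2, 18.8 and 14 against 19.5, 20.4 and 27.1. In each gene 1 or 2 arrays of the undetected group lay under the limit. Their log2 differences of -0.30 (SE 0.36), -0.40 (SE 0.36) and 0.36 (SE 0.33) had limma adjusted p-values of 0.777, 0.690 and 0.689. Hoxd13, the remaining one, is described below.

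Between knockout and normal kidneys, no Hox gene passed the test. Signals were compared on the log2 scale with limma, adjusted by Benjamini-Hochberg over 27022 probe sets that cleared a filter on dim values (mean log2 signal above a level of 14.7). A gene was represented by its brightest probe set. The filter left 29 of the 33 Hox genes and 38 of their 48 probe sets, with the 4 genes detected in neither group outside it. Of all 18193 genes it left 12464. Of the 29 genes 0 had an adjusted p under 0.05, where 0.610% of the 12464 genes tested did, and the smallest adjusted p was 0.275. At an unadjusted p under 0.05 there were 3 of 29, Hoxb4, Hoxd11 and Hoxd13, or 10.3%, against 11.7% of all genes. Of these 1 was higher and 2 were lower in the knockout, where 6.14% and 5.57% of all genes were. That count was 1 without knockout replicate 2 (3.45%, against 7.37% of all genes) and 5 without normal replicate 2 (17.2% against 10.4%). It was 4 without knockout replicate 1 (13.8% against 8.2%) or knockout replicate 3 (13.8% against 8.72%), and 3 without normal replicate 1 (10.3% against 11.7%) or normal replicate 3 (10.3% against 14.2%). The Hox share thus stood under that of all genes with all 6 arrays, and on either side of it with single arrays left out. Knockout and normal arrays did not overlap for 4 of 29 genes (Hoxb1, Hoxb4, Hoxd12 and Hoxd13), or 13.8%, against 19.3% of all genes. Of these 3 were higher and 1 lower, beside 10.2% and 9.10% of all genes. Among probe sets 0 of 38 passed where 0.588% of all did, and 5 of 38 had an unadjusted p under 0.05, or 13.2%, against 11.5%.

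The direction leaned slightly to lower values. In the knockout 19 of the 29 genes were lower and 10 higher, the latter including Hoxa2 at 0.00, and 50.6% of all genes tested were lower. The median log2 difference of the 29 genes was -0.07, beside 0.00 for all genes tested. Its size was under the spread between arrays, an SD of 0.08 for the median deviation of these genes from their group means. Single genes ran from -0.53 (Hoxb4) to 1.26 (Hoxd13). By cluster the medians were -0.17 for HoxA (6 of 8 lower), 0.01 for HoxB (3 of 7 lower), -0.13 for HoxC (5 of 6 lower) and -0.10 for HoxD (5 of 8 lower). By place they were 0.00 for groups 1 to 3, -0.23 for groups 4 to 8, where 9 of 11 genes were lower, and -0.02 for groups 9 to 13. These are descriptions with no test.

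**Figure D2:**
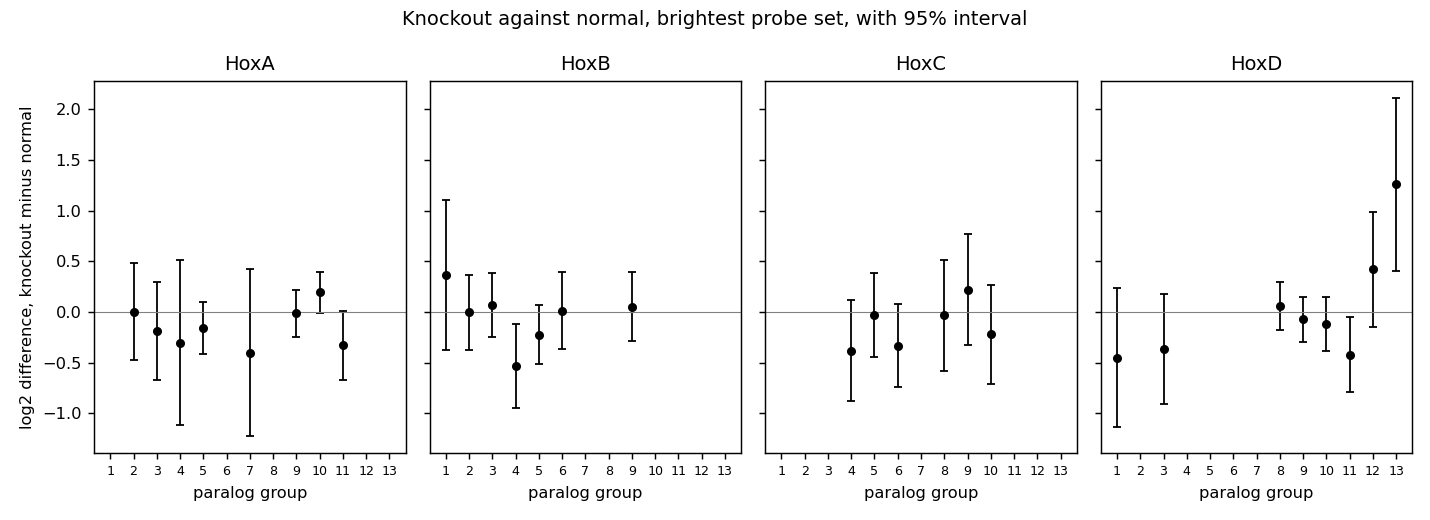
Log2 difference between knockout and normal kidneys (vertical axis) for the brightest probe set of each of the 29 tested Hox genes, by cluster (panels) and paralog group (horizontal axis). Points are limma estimates and bars their 95% intervals, and the intervals of Hoxb4, Hoxd11 and Hoxd13 alone lie off 0 before adjustment.

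Among the group 11 genes, which specify the metanephric mesenchyme, both measured members read lower in the knockout on average without passing. Hoxd11 read 367, 288 and 252 in normal kidneys and 227, 192 and 254 in knockout kidneys. Hoxd10 and Hoxd11 overlap in the RefSeq gene table. Normal replicate 1 was the highest and knockout replicate 2 the lowest, and the groups overlapped by a narrow margin, at 254 against 252. Its log2 difference was -0.42 (95% interval from -0.79 to -0.06; limma adjusted p = 0.390), and -0.27 without normal replicate 1. Hoxa11 read 422, 509 and 442 against 345, 306 and 452. Here knockout replicate 3 stood among the normal arrays, and the other 2 knockout arrays lay below all of them. The log2 difference of Hoxa11 was -0.33 (95% interval from -0.67 to 0.01; limma adjusted p = 0.442), -0.49 without knockout replicate 3 and -0.21 without knockout replicate 2.

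The group 10 genes did not share a direction. Hoxa10, a gene of kidney mesenchyme and of the female reproductive tract, read 653, 666 and 713 in normal kidneys and 707, 816 and 802 in knockout kidneys, with knockout replicate 1 inside the normal range. Its log2 difference was 0.19 (95% interval from -0.01 to 0.40; limma adjusted p = 0.453). Hoxc10 read 1220, 732 and 662 against 604, 757 and 816. Normal replicate 1 stood far above the other 5 arrays, and the log2 difference of -0.22 (SE 0.22; limma adjusted p = 0.714) became 0.05 without it. Hoxd10 read 699, 850 and 848 against 723, 652 and 830, with the groups interleaved. Its log2 difference was -0.12 (95% interval from -0.39 to 0.15; limma adjusted p = 0.713). Among these 5 genes of groups 10 and 11, then, 4 were lower and 1 higher in the knockout, and the normal and knockout arrays overlapped for all 5.

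Group 9, whose members are broadly expressed in posterior mesoderm, showed differences within the spread between arrays. Hoxa9 read 1204, 1347 and 1577 in normal kidneys and 1361, 1348 and 1349 in knockout kidneys, so the knockout arrays fell inside the normal range. Its log2 difference was -0.02, with a 95% interval from -0.25 to 0.21, and its other probe set stood at -0.10. Hoxd9 read 611, 560 and 508 against 516, 512 and 563, a log2 difference of -0.07 with an interval from -0.30 to 0.15. Hoxb9 read 101, 104 and 105 against 95.5, 105 and 122, at 0.05 (SE 0.15). Hoxc9 read 112, 151 and 128 against 106, 215 and 150, where knockout replicate 2 was the highest array, at 0.22 (SE 0.24). All 4 group 9 genes overlapped between the groups, with limma adjusted p-values from 0.756 to 0.966. The intervals of Hoxa9 and Hoxd9 leave room for a difference of at most about 0.3 on the log2 scale.

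**Figure D3:**
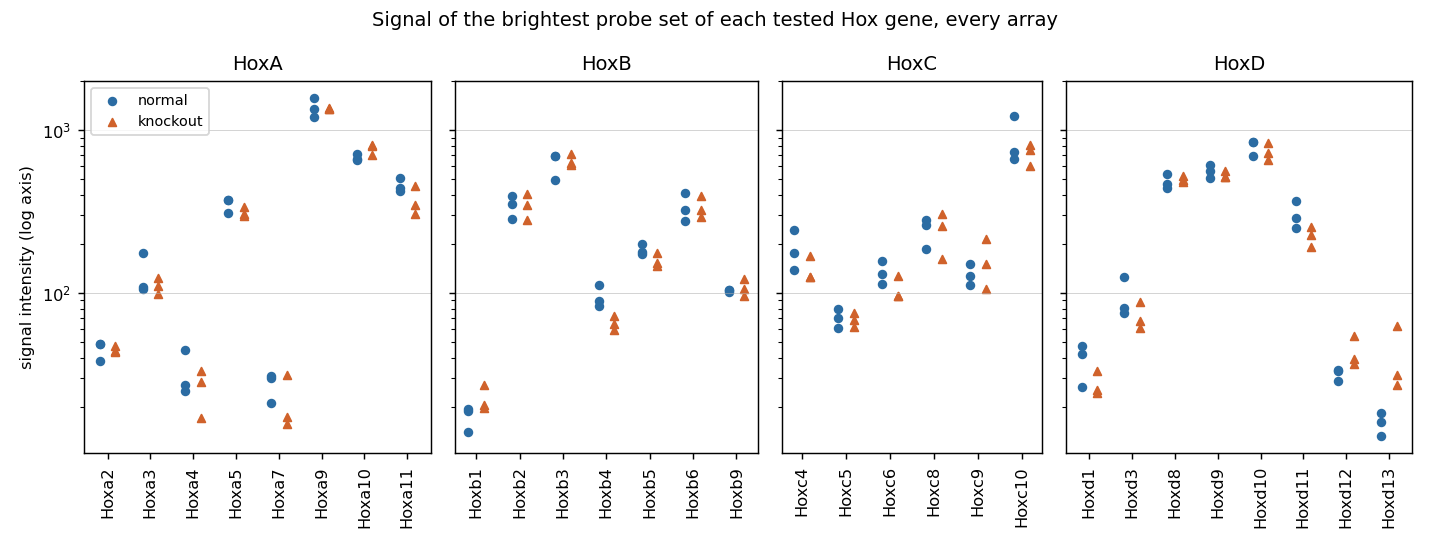
Signal on a log axis for the brightest probe set of the 29 tested Hox genes, with 1 point per array, circles for normal and triangles for knockout kidneys, in panels by cluster. The symbols interleave for 25 genes, and stand apart for Hoxb1, Hoxb4, Hoxd12 and Hoxd13. Heights of different genes are not comparable, because probe sets bind with different efficiency.

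At the posterior end of the HoxD cluster, Hoxd12 and Hoxd13 read higher in the knockout on average without passing. Hoxd13 read 13.1, 18.3 and 16 in normal kidneys, of which 1 lay above the detection limit, and 31.1, 27.0 and 62.5 in knockout kidneys. All knockout arrays were above all normal arrays, and knockout replicate 3 was the highest by far. The log2 difference was 1.26 (95% interval from 0.40 to 2.11; limma adjusted p = 0.275), and 0.89 without knockout replicate 3. Since the normal signals lie at the limit, the size of this difference is poorly measured, and it was 0.77 when 16 was added to each signal before log2. The other Hoxd13 probe set, under the limit on all 6 arrays, read 5.0, 3.9 and 14.4 against 14, 10.3 and 9.7. Hoxd12, its neighbour, read 33.1, 28.7 and 33.8 against 36.4, 39.1 and 54.1, again with knockout replicate 3 highest and with no overlap. The log2 difference of Hoxd12 was 0.42 (SE 0.25; limma adjusted p = 0.552). Hoxd11, next in line, stood at -0.42, and Hoxd10, Hoxd9 and Hoxd8 at -0.12, -0.07 and 0.06. Evx2, the homeobox gene beyond Hoxd13, read 25.0, 15.3 and 20.4 against 34.9, 11.4 and 22.5, a log2 difference of 0.07.

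**Figure D4:**
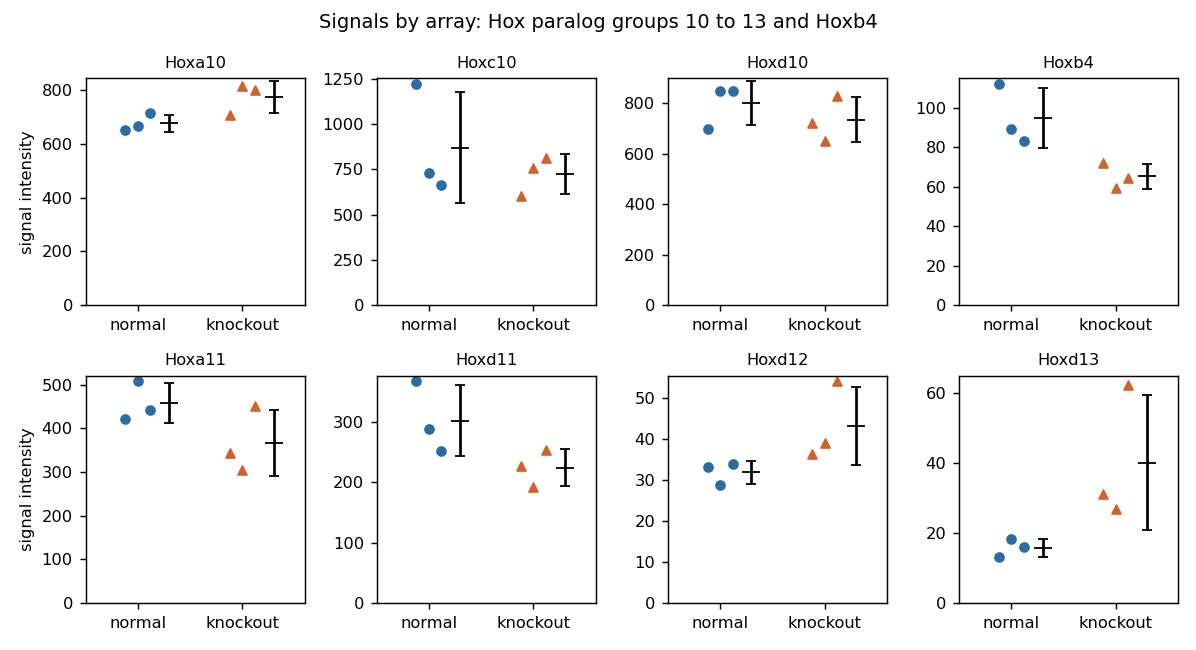
Signal by array (vertical axes, linear from 0) for Hoxa10, Hoxc10, Hoxd10, Hoxb4, Hoxa11, Hoxd11, Hoxd12 and Hoxd13, with circles for normal, triangles for knockout and a bar for mean ± SD of 3 arrays. Hoxb4 is lower and Hoxd12 and Hoxd13 are higher on all 3 knockout arrays than on any normal array, and the other 5 genes overlap.

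Of a list of 12 genes for mesonephric duct, cloaca and genital tubercle, where Hoxd13 is known to act, 5 cleared the filter and 0 passed, with 3 higher and 2 lower in the knockout (median log2 difference 0.10). Isl1, a homeobox gene of genital and bladder mesenchyme and of sympathetic neurons, read 54.1, 17.7 and 23.2 in normal kidneys and 68.0, 53.4 and 92.1 in knockout kidneys (1.30, SE 0.41; limma adjusted p = 0.299), and its other probe set stood at 0.49. Shh, a signal of the cloacal and ureteric epithelium, read 80.4, 82.3 and 81.1 against 91.4, 40.1 and 73.7 (-0.33, SE 0.28). Fgf8, a growth factor, read 45.5, 40.4 and 34.0 against 34.0, 28.4 and 34.9 (-0.30, SE 0.24). These 3 genes overlapped between the groups, and so did Krt5, a keratin of basal epithelium, at 23.2, 31.1 and 8.7 against 17.4, 20.1 and 22.2 (0.10, SE 0.48). Upk2, a protein of urothelial plaques, read 5.1, 20.6 and 3.8 against 37.6, 37.1 and 39.0. Only normal replicate 2 exceeded the detection limit among its normal arrays, so Upk2 cleared the filter through the knockout arrays and its difference has no reliable size. Foxa1, Foxa2, Upk1b, Upk3a, Tbx4, Pitx1 and Trp63 did not clear the filter, and no signal of theirs was above 23.0. Among them the plaque protein Upk3a read 22.8, 13 and 11 against 2.6, 17.9 and 3.3, with the highest value in normal replicate 1. A Trp63 probe set went the other way, at 2.3, 1.2 and 1.3 against 8.2, 7.4 and 7.4. Signals so near or under the limit give no reliable direction. The 5 tested members had no common direction. The summed signal of the 5 genes ran from 151 to 208 in normal and from 179 to 262 in knockout kidneys. The part of such tissue in the Hoxd13 values was not tested.

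**Figure D5:**
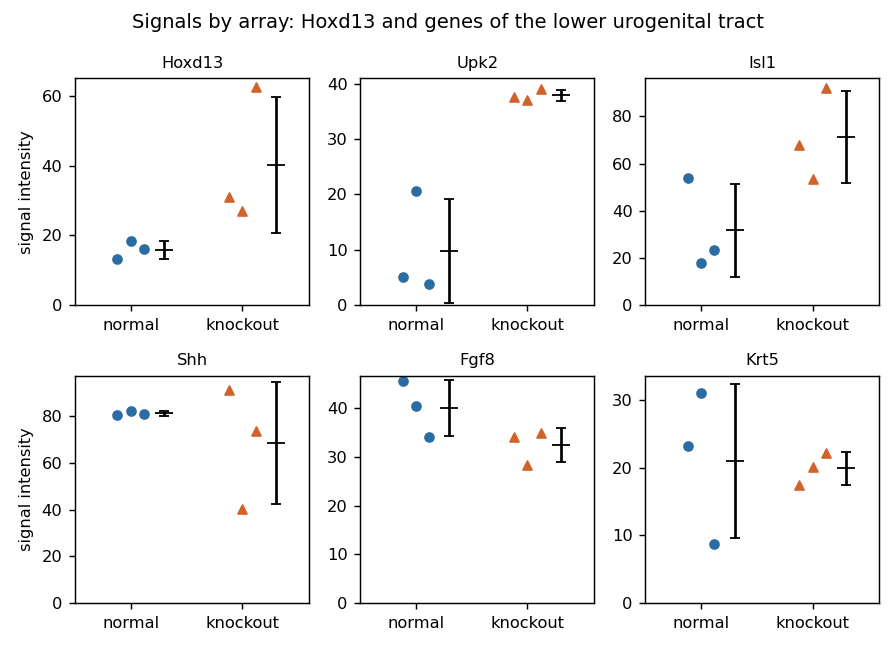
Signal by array (vertical axes, linear from 0) for Hoxd13 and for the 5 tested genes of the lower urogenital list, Upk2, Isl1, Shh, Fgf8 and Krt5, with circles for normal, triangles for knockout and a bar for mean ± SD of 3 arrays. Hoxd13 and Upk2 do not overlap between groups, and the other 4 genes do.

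In the middle of the clusters, groups 4 to 8, Hoxb4 had the smallest p. Hoxb4, a regulator of blood stem cell expansion as well as of axial patterning, read 112, 89.4 and 83.2 in normal kidneys and 71.8, 59.3 and 64.6 in knockout kidneys. Every knockout array lay below every normal array. The log2 difference was -0.53 (95% interval from -0.95 to -0.12; limma adjusted p = 0.342), and the dimmer Hoxb4 probe set read 50.6, 32.2 and 32.1 against 27.1, 36.3 and 25.2, at -0.36 (SE 0.29). The other group 4 gene with bright signals, Hoxc4, read 244, 138 and 175 against 124, 126 and 170, at -0.38 (SE 0.22; limma adjusted p = 0.536). Its highest value came from normal replicate 1, and the groups overlapped.

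Hoxb3 spans Hoxb4 in the RefSeq gene table, and its probe sets disagreed. The brighter read 493, 692 and 690 in normal and 709, 609 and 627 in knockout kidneys, a log2 difference of 0.07. The dimmer read 276, 232 and 212 against 189, 162 and 177, with no overlap, at -0.44 (SE 0.13; limma adjusted p = 0.278). A like split appeared for Hoxa5, a gene of gut and lung mesenchyme. Its brighter probe set read 372, 308 and 373 against 337, 306 and 299 (-0.16, SE 0.11), and its dimmer one, of the kind Affymetrix marks as open to cross-hybridization, read 114, 93.7 and 97.8 against 154, 136 and 112 (0.39, SE 0.17; limma adjusted p = 0.420). Of the 7 Hox genes with more than 1 kept probe set, 3 had probe sets of opposite sign, the third being Hoxc6. Hoxc6 read 158, 114 and 131 against 127, 95.7 and 95.7 by its brightest probe set (-0.34, SE 0.18), -0.36 by the next and 0.39 by the dimmest. With all kept probe sets of a gene averaged, 0 of the 29 genes passed as well.

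For the remaining genes of groups 5, 6 and 8 the log2 differences lay between -0.23 and 0.06. Hoxb5, which acts in enteric neural and lung development, read 174, 200 and 179 in normal and 177, 145 and 153 in knockout kidneys, at -0.23 (SE 0.13; limma adjusted p = 0.539). Hoxb6 read 276, 322 and 412 against 323, 395 and 294, at 0.01 (SE 0.17). Hoxc5 read 69.9, 60.6 and 79.2 against 61.9, 67.9 and 74.7, at -0.03 (SE 0.18). Each of these overlapped between groups. Hoxc8 read 260, 185 and 281 against 305, 257 and 161, where the highest and the lowest array both belonged to the knockout (-0.03, SE 0.24). Hoxd8, read by 2 probe sets, had 539, 439 and 464 against 523, 494 and 478 for the brighter and log2 differences of 0.06 (SE 0.10) and 0.10 (SE 0.15), so its probe sets gave like values.

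Hoxb7, whose promoter drives the recombinase, was not measurable here. Its own probe set read 3.1, 7.0 and 7.6 in normal and 0.7, 6.8 and 4.0 in knockout kidneys, under the limit on all 6 arrays. No fold is given for it.

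The anterior genes, groups 1 to 3, pattern the hindbrain and pharyngeal arches and were read in the kidney too. Hoxb2 read 354, 391 and 286 in normal and 346, 280 and 405 in knockout kidneys, a log2 difference of 0.00 (95% interval from -0.37 to 0.36). Hoxa2 read 48.4, 38.3 and 48.3 against 44.2, 47.0 and 43.1, also at 0.00. Neither showed a difference larger than the spread between arrays. Hoxd3 read 126, 80.5 and 75.3 against 87.8, 60.6 and 67.2 (-0.36, SE 0.24), and Hoxd1, a gene of sensory neurons and mesoderm, 26.3, 42.1 and 47.2 against 24.4, 25.2 and 33.2 (-0.45, SE 0.30). Both overlapped between groups, with limma adjusted p-values of 0.587 and 0.594. Hoxa3, which acts in thymus and parathyroid formation, had 4 probe sets, of which 3 were kept, at -0.19, -0.35 and -0.34, the brightest reading 175, 106 and 108 against 124, 111 and 97.8. As with Hoxc4 and Hoxd3, its highest array was normal replicate 1.

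Genes that work with Hox proteins were described through lists. The Hox proteins bind DNA with TALE cofactors, and of 9 such genes 7 were tested and 0 passed (median log2 difference -0.03). Meis1 read 951, 826 and 904 in normal and 970, 1172 and 1176 in knockout kidneys, at 0.30 (SE 0.10; limma adjusted p = 0.330). Meis2 read 1701, 2264 and 2587 against 2621, 2910 and 2853, at 0.38 (SE 0.14; limma adjusted p = 0.376). Both were higher on every knockout array than on any normal one. Further kept probe sets disagreed, at -0.35 and 0.36 for Meis1 and at 0.23, -0.63 and 0.12 for Meis2.

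In the list for the group 11 network of the metanephric mesenchyme, which is not limited to targets, 7 of 9 genes were tested and 0 passed (median -0.18, with 4 lower). Itga8, an integrin needed for ureteric bud outgrowth, read 1202, 1089 and 1122 in normal and 978, 905 and 1029 in knockout kidneys, at -0.23 (SE 0.08; limma adjusted p = 0.371). Osr1, a transcription factor of early nephrogenic mesoderm, read 204, 124 and 188 against 277, 251 and 244, at 0.61 (SE 0.18; limma adjusted p = 0.275). For both, the groups did not overlap. The direct group 11 targets Six2 and Gdnf stood at -0.49 (SE 0.23; limma adjusted p = 0.453) and -0.52 (SE 0.23; limma adjusted p = 0.443). Hoxa11 stood at -0.33 and Hoxd11 at -0.42, and a link between these values was not tested. Six2 read 1289, 859 and 659 in normal and 580, 566 and 800 in knockout kidneys, with normal replicate 1 highest. Gdnf read 365, 529 and 429 against 365, 205 and 378. Both overlapped between the groups. The other tested members, Eya1, Sall1 and Wt1, stood at 0.08 (SE 0.15), 0.13 (SE 0.17) and -0.18 (SE 0.17). Further kept probe sets stood at 0.02 and -0.64 for Eya1 and at -0.33 for Sall1, so the direction of these genes depends on the probe set.

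Among regulators of the clusters no gene passed either. Of 10 activators, 7 were tested and 0 passed (median -0.32, 6 lower). Kmt2a, the histone methyltransferase that keeps Hox genes active, read 385, 293 and 270 in normal and 268, 240 and 186 in knockout kidneys, at -0.45 (SE 0.17; limma adjusted p = 0.397). For this probe set the groups did not overlap, but by a narrow margin, normal replicate 3 against knockout replicate 1. The other Kmt2a probe set read 307, 177 and 175 against 136, 140 and 129, also without overlap, at -0.66 (limma adjusted p = 0.310). The retinoic acid receptor Rarg stood at -0.41 (SE 0.17; limma adjusted p = 0.423), and Cdx1, Cdx2 and Cdx4 did not clear the filter. Of 17 Polycomb genes, which keep Hox genes silent, 15 were tested and 0 passed (median -0.01). The smallest p there belonged to Rnf2 at 0.24 (SE 0.08; limma adjusted p = 0.308) and Cbx2 at -0.38 (SE 0.15; limma adjusted p = 0.409).

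Other tissues that a dissected kidney can carry varied between arrays. The summed signal of 12 tested skeletal muscle genes of 16 ran from 715 to 806 in normal kidneys and stood at 1525, 7192 and 910 in knockout kidneys. For the 11 tested chromaffin and sympathetic genes of 14 it stood at 2123, 470 and 703 in normal and 1648, 983 and 536 in knockout kidneys. Knockout replicate 2, the array richest in muscle genes, had the lowest of the 6 signals for 8 of the 29 Hox genes, among them Hoxa11, Hoxd11 and Hoxb4, and the highest for 2, Hoxa10 and Hoxc9. Normal replicate 1, the richest in chromaffin genes, had the highest signal for 11 of the 29, among them Hoxc10, Hoxd11 and Hoxb4, and the lowest for 5, among them Hoxa10 and Hoxa9. Knockout replicate 1, with far less muscle signal than knockout replicate 2, was lowest for 7 and highest for 2. Knockout replicate 3 was lowest for 4 and highest for 6. Normal replicate 2 was lowest for 4 and highest for 3, and normal replicate 3 for 2 and 5. The same counts over all genes tested were not computed, so these cannot be read as particular to Hox genes. The Hoxd13 difference was 1.49 without knockout replicate 2 and 1.13 without normal replicate 1, and that of Hoxb4 was -0.47 and -0.41. Ureteric bud genes, 15 of 16 tested, summed to between 4498 and 5441 in normal and between 3817 and 5786 in knockout kidneys. Of these genes 0 passed, and 11 of the 15 were lower in the knockout (median log2 difference -0.13), where 50.6% of all genes were. At an unadjusted limma p under 0.05, 2 were lower and 0 higher, beside 5.57% and 6.14% of all genes. Of adrenal and gonadal genes, 4 of 10 cleared the filter. Normal replicate 1 stood apart there: the gonadal receptor Amhr2 read 242 in it and 12.3 to 34.3 elsewhere, Nr5a1, a defining factor of adrenal cortex and gonad, 53.5 and 1.2 to 3.8 by 1 of its 2 probe sets, and Gata4 67.3 and 2.9 to 22.0. Cyp11a1, a steroid enzyme, was under the limit on all 6 arrays. Macrophage genes, 11 tested, summed to 533 to 1109 in normal and 1059 to 1506 in knockout kidneys, and 8 erythroid genes to 12677 to 18215 and 15835 to 22210. The median log2 difference was 0.69 for the macrophage and 0.70 for the erythroid genes, with 1 gene lower in each list and 0 passing. At an unadjusted limma p under 0.05, 4 macrophage and 3 erythroid genes were higher and 0 lower, beside 6.14% and 5.57% of all genes. The part of these tissues in the Hox values was otherwise not tested.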

How the data were processed

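Each deposited value is a linear MAS5 signal intensity, as the submitters' processing notes name that tool; no source used here gives its version, and detection calls were not used. RNA was amplified in 1 cycle and labelled with biotin, per the labels' protocols. Values under 1.7, the 10th percentile of positive values, were set to it before log2. The 64 Affymetrix control probe sets were left out. Probe sets above the 40th percentile of mean log2 signal were fitted with limma 3.58.1 in R 4.3.3 (lmFit, eBayes with an intensity trend), and p-values were adjusted by Benjamini-Hochberg over all 27022. The fit was tested on simulated data. The planned detection limit, from olfactory receptor genes, needed 50 probe sets and 44 were found, so the 40th percentile of each array was used. All Hox genes may be named. Values by array go to genes of groups 10 and 11, Hoxb7, genes detected in 1 group, and genes with a small p, and to others for completeness. From each list, members with the smallest p are named, and a few further list genes were picked with their values known. The members and lists were chosen with earlier results of these data known. MAS5 subtracts mismatch signal, so values near the floor scatter on a log scale. Intervals cover 95%, values in brackets marked SE are standard errors, and the number of arrays, 3 against 3, limits precision.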

Additional observations from a re-analysis of the deposited data

How the results depend on the processing

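No Hox gene passed under any of the 17 alternatives run, which covered scaling, filters on dim values, a pseudocount of 16, variance models, array weights, the replicate number as a block, averaged probe sets and leaving out arrays. The smallest adjusted p of any Hox gene was 0.0875 (Hoxd13, with array medians made equal, limma). The number of Hox genes at an unadjusted p under 0.05 ran from 1 to 5 with single arrays left out, and the number called was 0 throughout. The median Hox difference ran from -0.13 to -0.03 and 16 to 21 genes were lower, over all 17. Genes detected in both groups numbered 25 to 28 over 10 alternatives. Over the whole array, 159 probe sets passed. There were 445 with array medians made equal, 13 with no filter, 41 without the intensity trend and 47 to 148 with single arrays left out. There were 31 without normal replicate 1 and knockout replicate 1, chosen after seeing the data. With single arrays left out Hoxa4 ran from -0.50 to -0.01 and Hoxc10 from -0.39 to 0.05. In the fit without both replicates numbered 1 Hoxa4 reversed to 0.24 and Hoxc10 to 0.18, and Hoxc10 was 0.05 without normal replicate 1 alone; the cause was not tested. With the replicate block 116 probe sets and 0 Hox genes passed. Deviations from the group means correlated at 0.083, -0.108 and -0.201 between same-numbered arrays, and at -0.231 to 0.302 between the other pairs. With 3 arrays in each group, these values cannot decide whether the numbers pair the samples, and the labels do not say. MAS5 values came without background or slide data, so neither could be varied.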

Other observations

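Noncoding transcripts of the clusters were measured beside the Hox genes. Of 17 listed noncoding RNAs and Evx genes, 4 were tested and 0 passed by limma, with 1 at an unadjusted p under 0.05, where 11.7% of all genes were. That one was Hoxd3os1, an antisense RNA of the HoxD cluster, which read 537, 382 and 514 in normal and 436, 254 and 282 in knockout replicates 1 to 3, a log2 difference of -0.58 (SE 0.21; limma adjusted p = 0.357). Its other probe set read 37.7, 27.7 and 42.1 against 29.2, 19.1 and 16.4, at -0.76 (limma adjusted p = 0.429). For both probe sets knockout replicate 1 overlapped the normal arrays. Hoxb5os, which overlaps Hoxb5 and Hoxb6 in the RefSeq gene table, read 290, 651 and 641 against 698, 584 and 762 (0.45, SE 0.28), and normal replicate 1 was far below the other 5 arrays. Hoxa11os, the antisense partner of Hoxa11, read 338, 343 and 340 against 302, 260 and 363 (-0.16, SE 0.13). As for Hoxa11 itself, knockout replicate 2 was the lowest of the 6 arrays.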
